A study of Mus musculus with 2 samples.

Results

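Arntl, Clock and Npas2 encode the activators of the circadian clock, and their transcripts were followed here through CD4 T cells of mouse visceral adipose tissue (VAT) and spleen. The 3 genes are those whose symbol in the deposited gene list matched a member name, out of 55487 genes in all. CD4 T cells came from C57BL/6 Foxp3.Cre-YFP mice, a strain in which Cre is made under Foxp3 in regulatory T cells (Tregs). Tregs lacked Bmal1, the protein product of Arntl, in the KO mice and kept it in the WT mice. All mice were kept in reverse-light rooms, and cells were taken at zeitgeber time (ZT, hours after lights on) 12 or 0. Per the labels 34000 VAT cells and 32000 spleen cells were sorted, marked with hashtag antibodies by genotype, time and tissue, and pooled into 2 libraries, 1 of transcripts and 1 of hashtags. Those 3 factors make 8 combinations. Only hashtags 1 to 6 of the 10 named carried cells, and none has a label for tissue, genotype or time. The hashtags are therefore not replicates of any group, KO was not compared with WT or ZT12 with ZT0, and no test was run. Each hashtag is given its own values, with 95% intervals that cover counting error only.

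Bmal1 pairs with CLOCK or with NPAS2, a close relative of CLOCK, and the pair binds E-box DNA to switch on Per, Cry and Rev-erb genes. PER and CRY proteins then block the pair. The Rev-erb proteins, encoded by Nr1d1 and Nr1d2, repress Arntl, Clock and Npas2 in many tissues, while ROR proteins activate Arntl. In visceral fat a set of Tregs carries ST2, the receptor of interleukin 33 encoded by Il1rl1, together with amphiregulin (Areg) and Klrg1.

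Arntl (ENSMUSG00000055116.8) lies at chr7:113178471-113314126, Clock (ENSMUSG00000029238.11) at chr5:76209868-76305603 and Npas2 (ENSMUSG00000026077.15) at chr1:39193702-39363240, all in the RefSeq annotation of GRCm38.p6. The RefSeq table holds 2 promoter windows of 300 bases for Arntl, 3 for Clock and 1 for Npas2. Each reaches from 250 bases before a start point to 50 after it. The start points of these windows lie inside the gene spans given above, not at their ends. They were searched on both strands for AGGTCA, the core letters bound by ROR and Rev-erb proteins, and for CACGTG, the E-box. AGGTCA stood in 1 Arntl window and 1 Clock window, and in 5340 of all 32851 windows (16.3%). CACGTG stood in none of the members' windows, against 2349 of all windows (7.15%). The Arntl match begins 31 bases after the start point of its window, within chr7:113207530-113207559 on the plus strand. The Clock match, which reads TGACCT, begins 119 bases before the start point of its window, within chr5:76303604-76303633 on the minus strand. Both are shown because they are the members' matches to the site of their known regulators, and capitals mark the matched letters.
Arntl: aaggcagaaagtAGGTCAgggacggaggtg
Clock: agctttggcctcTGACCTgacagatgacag
The Npas2 window held neither motif. Its 250 bases upstream of the start point, chr1:39194022-39194271 on the plus strand, are shown because Npas2 is the member that differed most between the hashtags.
Npas2: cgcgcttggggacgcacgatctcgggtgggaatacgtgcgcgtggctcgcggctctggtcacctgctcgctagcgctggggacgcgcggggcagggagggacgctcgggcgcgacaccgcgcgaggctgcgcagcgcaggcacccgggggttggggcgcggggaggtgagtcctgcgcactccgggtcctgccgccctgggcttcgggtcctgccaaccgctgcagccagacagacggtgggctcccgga
These matches describe letters only, and no binding was measured.

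After removal of hashtag doublets and low-quality barcodes, 11655 T cells remained, 1197 to 3006 per hashtag, with medians of 2747 to 3720.5 UMIs (unique transcript molecules) per cell. Levels are CPM values, in which the UMIs of a gene are set against all UMIs summed over the cells named. Over all T cells the files held 717 UMIs of Arntl in 673 cells, 848 of Clock in 780 cells and 110 of Npas2 in 102 cells, so most cells had no UMI of any member. T cells were gated by a UMI of Foxp3 (687 cells), Il1rl1 (2310), Cxcr3 (3429), Cxcr5 (448) or Klrd1 (425), or as naive cells by Ccr7 among other criteria, with none of these markers or Cd44 (1399). Foxp3 marks Tregs, Cxcr3 type 1 helper cells, Cxcr5 follicular helper cells and Klrd1 cells with natural killer receptors. Gates overlap, and 341 cells had both Foxp3 and Il1rl1. Other markers of the same class were higher than in the other T cells of every hashtag used for 4 of 4 genes in Foxp3+, 4 of 6 in Il1rl1+, 4 of 4 in Cxcr3+, 4 of 4 in Cxcr5+, 2 of 4 in Klrd1+ and 3 of 3 in naive cells.

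The Il1rl1+ cells were of differing makeup between hashtags. They formed 26.1%, 37.9%, 21.7%, 41.7%, 4.56% and 5.09% of the T cells of hashtags 1 to 6. In hashtags 1 to 4 they carried Areg at 1403, 1749, 819 and 1356 CPM, Klrg1 at 584, 686, 493 and 545 CPM and Pparg, the lipid-sensing factor of fat Tregs, at 64.0, 63.1, 41.9 and 64.9 CPM. In hashtags 5 and 6 the same gate held Areg at 49.2 and 53.8 CPM, Klrg1 at 43.5 and 20.5 CPM and Pparg at 0 and 2.56 CPM. The Il1rl1+ cells of hashtags 5 and 6, 137 and 88 in number, thus lacked the fat Treg profile.

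Npas2, the alternative partner of Bmal1, was concentrated in the Il1rl1+ cells of hashtags 2 and 4. In Il1rl1+ cells the 6 hashtags held 6, 43, 1, 35, 0 and 1 UMIs of Npas2, which are 2.33, 20.3, 0.666, 19.3, 0 and 2.56 CPM. In the other T cells they held 3, 9, 4, 5, 2 and 1 UMIs, which are 0.543, 3.77, 0.988, 2.55, 0.195 and 0.158 CPM. In Il1rl1+ cells the intervals of hashtags 2 and 4, 14.7 to 27.3 and 13.4 to 26.8 CPM, lie above those of hashtags 1 (0.854 to 5.06 CPM) and 3 (0.0169 to 3.71 CPM). The count of 0 in the 137 Il1rl1+ cells of hashtag 5 allows up to 5.67 CPM (3 counts), which is above the levels of hashtags 1, 3 and 6. Outside the gate hashtag 2 exceeded hashtag 1 by 6.94-fold (1.73 to 39.9) and hashtag 3 by 3.81-fold (1.06 to 16.9), while the ratios of hashtag 4 over hashtag 1 (0.914 to 30.2) and over hashtag 3 (0.555 to 13.0) have intervals that include 1.

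Within Il1rl1+ cells Npas2 was 8.71-fold higher in hashtag 2 than in hashtag 1 (3.69 to 25.0) and 8.28-fold higher in hashtag 4 than in hashtag 1 (3.44 to 24.1). Hashtag 2 over hashtag 4 gave 1.05-fold (0.658 to 1.69), an interval that spans 1. Of the 15 pairs of hashtags, the counting interval of the ratio left out 1 for 8 pairs in Npas2, against 2 in Arntl and 1 in Clock, with no adjustment for the number of pairs. Outside Il1rl1+ cells the same counts were 6 pairs for Npas2, 1 for Arntl and 2 for Clock. Pairs were counted for the members only. In Il1rl1+ cells 59% of 12708 genes at 1 CPM or more differed by over 2-fold between their highest and lowest hashtag. Over all T cells Npas2 stood at 1.11, 11.5, 0.901, 10.6, 0.185 and 0.298 CPM, and hashtag 2 exceeded hashtag 5, which had 2 UMIs, by 62.2-fold (16.4 to 527). Among 12637 genes at 1 CPM or more in all T cells, 30.9% differed by over 2-fold between their highest and lowest hashtag. On a log2 scale with a prior count of 0.5, 24 of the 12637 (0.190%) spread at least as widely as Npas2. Npas2 passed the 1 CPM limit mainly through hashtags 2 and 4, which held 52 and 40 of its 110 UMIs. That share therefore does not measure how rare its spread is. Arntl, at 15.4 to 23.3 CPM, and Clock, at 17.3 to 24.8 CPM, stayed within 2-fold over all T cells. At their 10 CPM limit 12.5% of genes passed it.

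**Figure D1:**
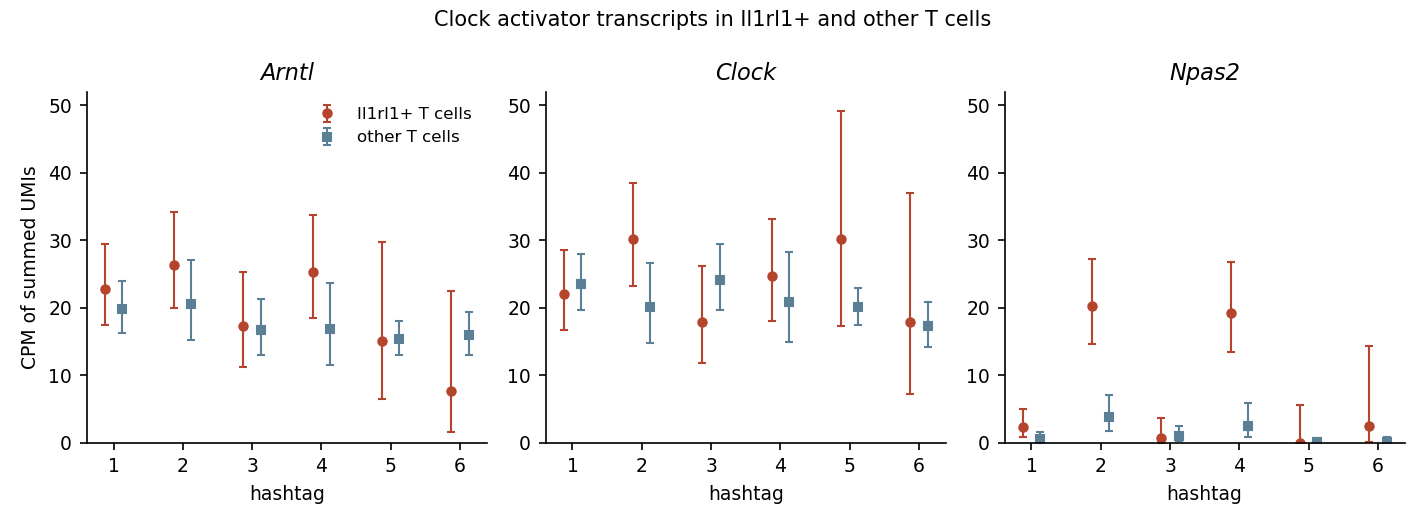
CPM of Arntl, Clock and Npas2 (y axis) in Il1rl1+ T cells (red circles) and other T cells (blue squares) of each hashtag (x axis), with exact 95% Poisson intervals, or up to the level of 3 counts where no UMI was found. Npas2 stands at 20.3 and 19.3 CPM in Il1rl1+ cells of hashtags 2 and 4 and at 2.56 CPM or less in those of the other hashtags, while the intervals of Arntl and Clock overlap between the cell sets of each hashtag.

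Within a hashtag, Npas2 was higher in Il1rl1+ cells than in the other T cells of hashtags 2 and 4. The fold was 5.38 (2.59 to 12.5) in hashtag 2 and 7.56 (2.95 to 24.7) in hashtag 4. Of the genes at 10 CPM or more, 4.24% were past 2-fold higher in Il1rl1+ cells of hashtag 2 and 4.14% in those of hashtag 4. A ratio as high as that of Npas2 was found for 0.592% of 7599 genes in hashtag 2 and for 0.196% of 7641 genes in hashtag 4. Npas2 reached the 10 CPM limit, at 11.5 and 10.6 CPM over all T cells of these hashtags, only through its Il1rl1+ cells. These shares therefore do not measure how rare its ratio is. In hashtag 1 the fold was 4.29 from 6 UMIs against 3, with an interval of 0.916 to 26.5 that includes 1. In hashtag 3 it was 0.674 from 1 UMI against 4 (0.0137 to 6.81). The difference of this fold between hashtags was not tested.

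Of all Npas2 UMIs in T cells of hashtag 2, 43 of 52 (82.7%, exact interval 69.7 to 91.8) lay in Il1rl1+ cells, which held 47.1% of its UMIs of all genes. In hashtag 4 it was 35 of 40 (87.5%, 73.2 to 95.8), against 48.1% of all UMIs. Arntl UMIs were spread more nearly as the totals, with 53.3% (43.3 to 63.1) and 58.2% (46.6 to 69.2) in Il1rl1+ cells of hashtags 2 and 4. For Clock the shares were 57.1% (47.4 to 66.5) and 52.3% (41.3 to 63.2). In terms of cells, 39 of 537 Il1rl1+ cells of hashtag 2 (7.26%) and 32 of 499 of hashtag 4 (6.41%) had an Npas2 UMI. Outside the gate it was 8 of 879 cells (0.910%) and 5 of 698 cells (0.716%), at medians of 2489 and 2551.5 UMIs against 3329 and 3099 inside it. With every cell thinned to 2000 UMIs, shallower cells left out, the shares were 2.74% of 474 and 3.73% of 429 Il1rl1+ cells in hashtags 2 and 4, against 0.329% of 607 and 0.622% of 482 other T cells. Naive cells, pooled over hashtags, had an Npas2 UMI in 1 of 1399 cells (0.0715%) at a median of 3976 UMIs.

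Npas2 was found in Il1rl1+ cells with and without a Foxp3 UMI. Il1rl1+ Foxp3+ cells held 9 and 5 UMIs in hashtags 2 and 4, at 27.9 CPM (12.8 to 53.0) and 17.8 CPM (5.77 to 41.5). Il1rl1+ Foxp3- cells held 34 and 30 UMIs, at 18.9 CPM (13.1 to 26.4) and 19.5 CPM (13.2 to 27.9), so the intervals overlap in both hashtags. Foxp3+ cells without Il1rl1 had 3 Npas2 UMIs in 346 cells over all hashtags, 2.62 CPM (0.541 to 7.67). Many Tregs have no Foxp3 UMI at this depth, so Il1rl1+ Foxp3- cells cannot be read as lacking the protein.

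Npas2 UMIs in the Cxcr3+, Cxcr5+ and Klrd1+ gates of hashtags 2 and 4 lay largely in cells that also carried Il1rl1 or Foxp3. Cxcr3+ cells of these hashtags had 10 and 4 UMIs, at 6.62 and 3.86 CPM. Cxcr3+ cells with neither Foxp3 nor Il1rl1 had 3 and 0, at 2.68 CPM (0.553 to 7.84) and 0 CPM, where 3 counts would be 4.22 CPM. T cells without Il1rl1 but with Areg or Klrg1 had 6 and 4 UMIs, at 8.74 CPM (3.21 to 19.0) and 7.18 CPM (1.96 to 18.4). T cells with none of the 3 genes had 3 and 1, at 1.76 CPM (0.363 to 5.15) and 0.712 CPM (0.0180 to 3.96). Over all hashtags, Npas2 had 1 UMI in 448 Cxcr5+ cells and 3 in 425 Klrd1+ cells. The 3 lay in the 29 Klrd1+ cells of hashtag 4, at 22.9 CPM (4.71 to 66.8), a level not below that of the Il1rl1+ cells of this hashtag but resting on few cells. The 19 of these cells with neither Foxp3 nor Il1rl1 had none (up to 42.9 CPM), and the 401 such Cxcr5+ cells of all hashtags had none (up to 2.09 CPM).

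Fos, Jun, Hspa1a and Hspa1b are early-response and heat shock genes that tissue dissociation can induce. They summed to 1980, 3480, 1815, 3022, 223 and 210 CPM in Il1rl1+ cells of hashtags 1 to 6. Like Npas2, the sum was highest in hashtags 2 and 4. Hashtags 1 and 3 were far above hashtags 5 and 6 in the sum. In Npas2 they were not, at 2.33 and 0.666 CPM against 0 and 2.56 CPM. In Il1rl1+ cells at or below the pooled median of that sum (1415 CPM), Npas2 stood at 13.8 CPM (6.60 to 25.3, 10 UMIs in 172 cells) in hashtag 2 and 13.5 CPM (6.72 to 24.1, 11 UMIs in 201 cells) in hashtag 4. The same cells of hashtag 1 held 2 UMIs in 352 cells, 1.43 CPM (0.173 to 5.15), and those of hashtag 3 none in 207 cells (up to 3.42 CPM). Above the median Npas2 was at 23.6 and 24.0 CPM in hashtags 2 and 4, against 3.40 and 1.60 CPM in hashtags 1 and 3. Levels of the dissociation genes were not matched between hashtags within either side, and their part in the difference between hashtags was not tested. Mast cell markers (Cpa3, Kit, Mcpt4) summed to 0 to 6.59 CPM in Il1rl1+ cells, with 14 and 6 UMIs in hashtags 2 and 4.

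The balance between the partners of Bmal1 was set out as the share of Npas2 among the UMIs of Clock and Npas2. It compares hashtags and gates only, since capture differs between genes. In Il1rl1+ cells the share was 40.2% (43 of 107 UMIs, 30.8 to 50.1) in hashtag 2 and 43.8% (35 of 80, 32.7 to 55.3) in hashtag 4. It was 9.52% (6 of 63, 3.58 to 19.6) in hashtag 1 and 3.57% (1 of 28, 0.0904 to 18.3) in hashtag 3. Hashtags 5 and 6 gave 0 of 16 UMIs, which allows a share of up to 18.8% (3 counts), and 1 of 8. Outside the gate the shares of hashtags 1 to 6 were 2.26%, 15.8%, 3.92%, 10.9%, 0.962% and 0.909%. Hashtags 2 and 4 were again the highest, though at fewer UMIs, 9 of 57 (7.48 to 27.9) and 5 of 46 (3.62 to 23.6).

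**Figure D2:**
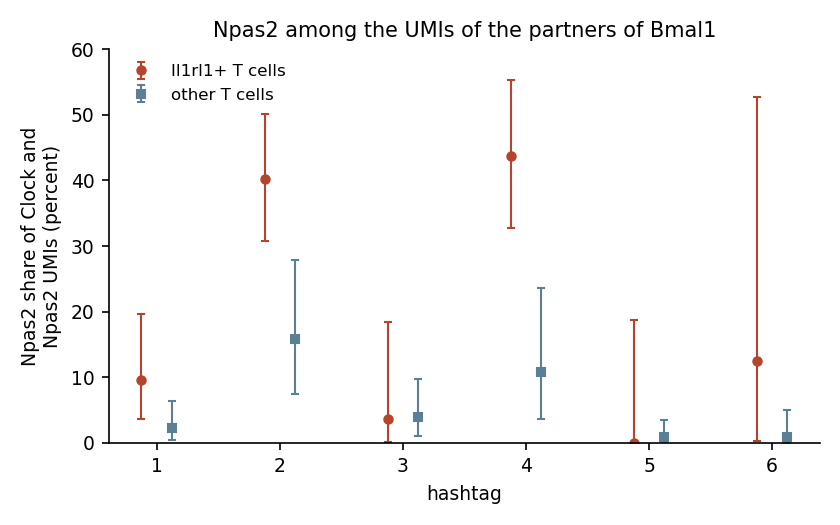
Npas2 as a percent of the UMIs of Clock and Npas2 (y axis) in Il1rl1+ T cells (red circles) and other T cells (blue squares) of each hashtag (x axis), with exact 95% Clopper-Pearson intervals, or up to the share of 3 counts where no Npas2 UMI was found. The Il1rl1+ cells of hashtags 2 and 4 stand at 40.2% and 43.8%, and hashtags 5 and 6 rest on 16 and 8 UMIs.

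Arntl, which encodes Bmal1 itself, was detected in every gate, with gate medians over hashtags between 11.7 CPM in Klrd1+ cells and 23.0 CPM in Foxp3+ cells. Il1rl1+ cells of hashtags 1 to 6 held 59, 56, 26, 46, 8 and 3 UMIs, at 22.9, 26.4, 17.3, 25.3, 15.1 and 7.69 CPM. The other T cells stood at 19.9, 20.5, 16.8, 16.8, 15.4 and 16.0 CPM. Il1rl1+ cells were the higher in 4 hashtags before a prior count is added, and their intervals overlap those of the other T cells in all 6. The median log2 ratio over hashtags was 0.13 with a prior count of 0.5 (range -0.84 to 0.58) and stayed above 0 in all 15 recomputations (0.061 to 0.38), and the ratio pooled over hashtags was 0.38 (0.14 to 0.62). Pooling weights hashtags unequally, since hashtags 1 to 4 gave most Il1rl1+ cells and hashtags 5 and 6 most other T cells. Library reads come from transcript 3′ ends and the labels do not name the deleted exons, so Arntl UMIs do not check the deletion.

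Foxp3+ cells, in which a KO mouse would carry the deletion, had Arntl at 15.7, 26.7, 11.98, 19.3, 27.9 and 31.7 CPM in hashtags 1 to 6. These rest on 13, 12, 6, 7, 8 and 7 UMIs, and no pair of hashtags had a ratio whose interval left out 1. The median log2 ratio of Foxp3+ over the other T cells was 0.12 (range -0.43 to 1.18). With cells of exactly 1 gate marker it was 0.72, and its sign turned in 4 of 14 recomputations. Cxcr3+ cells stood at 17.3, 19.2, 15.1, 21.3, 16.7 and 19.0 CPM, with a median log2 ratio of -0.11 over the other T cells (-0.45 to 0.39) whose sign turned in 3 of 15.

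In naive cells Arntl stood at 17.0, 16.5, 17.7, 6.88 and 12.2 CPM in hashtags 1, 3, 4, 5 and 6, the hashtags with at least 50 naive cells. Hashtags 5 and 6 hold 699 and 455 of the 1399 naive cells, and the other 3 had 4 to 6 Arntl UMIs each. In hashtag 5 the naive interval, 4.20 to 10.6 CPM from 20 UMIs, lay below that of its other T cells, 15.6 to 21.8 CPM. In hashtag 6, 7.81 to 18.1 CPM in naive cells overlapped 13.4 to 21.0 CPM in the others. The median log2 ratio was -0.13 (-1.40 to 0.06), and it turned to 0.27 with a prior count of 2, so its direction is not settled. Cxcr5+ cells, at 29.7 CPM in hashtag 5 (23 UMIs, 18.9 to 44.6) and 9.76 CPM in hashtag 6 (4 UMIs, 2.66 to 25.0), gave log2 ratios of 1.08 and -0.54 over the other T cells. Their median of 0.27 therefore joins opposite directions. Klrd1+ cells of hashtags 1, 3, 5 and 6 stood at 12.4, 8.76, 18.3 and 11.0 CPM. Their median log2 ratio over the other T cells was -0.47 (range -0.67 to 0.33) and stayed below 0 in all 14 recomputations (-0.57 to -0.030). The pooled ratio, -0.35 from 20 UMIs, has an interval of -1.07 to 0.30 that includes 0.

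Clock, the main partner of Bmal1, had gate medians between 11.9 CPM in Cxcr5+ cells and 23.4 CPM in Il1rl1+ cells. In Il1rl1+ cells the 6 hashtags held 57, 64, 27, 45, 16 and 7 UMIs, at 22.1, 30.1, 18.0, 24.8, 30.2 and 17.9 CPM. In the other T cells they stood at 23.5, 20.1, 24.2, 20.9, 20.1 and 17.3 CPM. Il1rl1+ cells were above the other T cells in 4 hashtags and below in 2. The median log2 ratio was 0.20 (-0.41 to 0.63), with its sign turned in 2 of 15 recomputations, and the pooled one 0.22 (-0.01 to 0.45). Hashtag 2 alone had an interval of the ratio above 1, at 1.50-fold (1.02 to 2.23), a size reached by 9.45% of its genes. Cxcr3+ cells stood at 23.1, 25.8, 22.0, 19.3, 22.4 and 22.6 CPM, and no pair of hashtags differed beyond counting error there. Foxp3+ cells ranged from 4.53 CPM (1 UMI, hashtag 6) to 30.4 CPM (11 UMIs, hashtag 4), and the sign of their median log2 ratio (0.027) turned in 6 of 14 recomputations.

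Clock in naive cells was at 8.52, 24.7, 8.85, 16.2 and 17.8 CPM in hashtags 1, 3, 4, 5 and 6, with 2 UMIs each in hashtags 1 and 4. The median log2 ratio over the other T cells was -0.45 (-1.14 to 0.22). The pooled ratio was -0.40 (-0.72 to -0.083), an interval below 0, and the median stayed below 0 in all 15 recomputations (-0.78 to -0.14). For all 7540 genes at 10 CPM or more in this comparison the median was itself -0.19. The Clock median of -0.45 lies below that value, but the range of Clock over hashtags includes it. Clock was therefore not shown to be set apart from genes in general. Cxcr5+ cells of hashtags 5 and 6 stood at 11.6 and 12.2 CPM, with a median log2 ratio of -0.60 that also stayed below 0 in all 14 recomputations (-0.87 to -0.22). Their pooled ratio, -0.75 from 14 UMIs, has an interval of -1.63 to 0.021 that includes 0. Klrd1+ cells of hashtags 1, 3, 5 and 6 ranged from 11.0 to 35.1 CPM, with a median log2 ratio of 0.12 whose sign turned in 4 of 14.

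In order of their median over hashtags, Arntl ran from Foxp3+ (23.0 CPM) through Il1rl1+ (20.1), Cxcr5+ (19.8), Cxcr3+ (18.1) and naive cells (16.5) to Klrd1+ cells (11.7). Clock ran from Il1rl1+ (23.4 CPM) through Cxcr3+ (22.5), Klrd1+ (22.2), Foxp3+ (21.4) and naive cells (16.2) to Cxcr5+ cells (11.9). Every pair of neighbours in either order overlaps in its range over hashtags, with Cxcr5+ cells read in 2 hashtags only. No gate had a median ratio of Arntl or Clock past 2-fold in either direction. Among genes at 10 CPM or more, the shares past 2-fold higher and lower were 2.04% and 1.36% in Il1rl1+, 0.663% and 0.808% in Foxp3+, 0.437% and 0.398% in Cxcr3+, 2.3% and 0.852% in Cxcr5+, 0.333% and 1.32% in Klrd1+, and 0.757% and 5.7% in naive cells. Absence of a call is thus the common outcome for a gene.

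**Figure D3:**
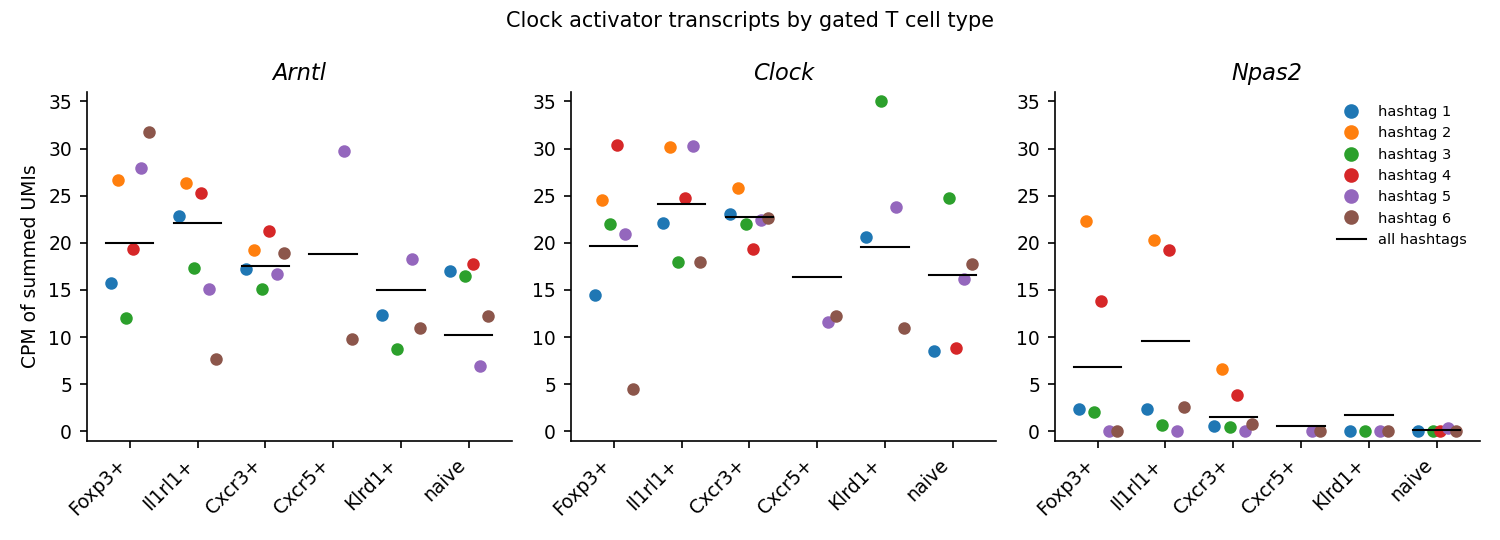
CPM of Arntl, Clock and Npas2 (y axis) in each T cell gate (x axis), with 1 coloured point per hashtag of at least 50 gated cells and a black line for all cells of the gate pooled. Arntl points of all gates overlap, Clock points in Cxcr5+ cells (2 hashtags) lie below those in Cxcr3+ and Il1rl1+ cells, and Npas2 is high in Foxp3+ and Il1rl1+ cells of hashtags 2 and 4 and lies at 0 to 0.344 CPM in naive cells.

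Within the Il1rl1+ gate the spread between hashtags was wide for genes in general, with 36.9% of those at 10 CPM or more past 2-fold between highest and lowest hashtag. Arntl passed it (log2 ratio 1.57), but only through hashtag 6 with 3 UMIs, without which the log2 ratio was 0.73. Clock did not (0.77). In Cxcr3+ cells 16.9% of genes passed 2-fold, and neither Arntl (0.51) nor Clock (0.40) did.

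The members were rarely seen in the same cell. After thinning to 2000 UMIs, 12 of 9581 T cells had both Arntl and Clock, against 14.0 from the product of their shares. Arntl and Npas2 met in 1 cell (1.68 from the product) and Clock and Npas2 in 2 cells (1.92). In the 2023 thinned Il1rl1+ cells the counts were 6 (3.35), 0 (1.51) and 2 (1.35). All of these are within the counting error of so few cells.

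Partners of the activators in the feedback loop differed between hashtags in Il1rl1+ cells. Cry1, a repressor of the Bmal1 pair, stood at 20.5, 47.1, 14.6, 56.1, 20.8 and 15.4 CPM in hashtags 1 to 6, so hashtags 2 and 4 were the highest. In the other T cells Cry1 was at 17.9, 29.3, 14.1, 23.95, 14.8 and 11.1 CPM, again highest in hashtags 2 and 4. Nr1d2, which encodes Rev-erb beta, stood at 22.5, 5.66, 30.6, 4.95, 13.2 and 10.3 CPM, with hashtags 2 and 4 the lowest. In the other T cells Nr1d2 was at 16.5, 15.5, 23.2, 13.8, 10.8 and 11.7 CPM. Of the other targets past 2-fold, Hlf, an activator of clock output genes, stood at 25.2, 28.7, 16.6, 45.7, 3.78 and 2.56 CPM. Hlf was highest in hashtag 4 and next in hashtag 2, whose interval (22.0 to 36.9) overlaps that of hashtag 1 (19.4 to 32.1). Per1, a repressor that pairs with CRY proteins, stood at 37.6, 31.6, 35.9, 34.1, 13.2 and 10.3 CPM, with hashtags 1 to 4 alike. Bhlhe40, a repressor at E-boxes, stood at 79.5, 35.8, 41.9, 57.2, 9.45 and 25.6 CPM and was highest in hashtag 1. Wee1, a cell cycle kinase, at 3.78 to 17.1 CPM, was also highest in hashtag 1. Nampt, an enzyme of NAD synthesis, at 9.45 to 22.0 CPM, was highest in hashtag 4. Nfil3, a repressor of clock output genes, stood at 30.6, 48.5, 22.6, 49.0, 7.56 and 5.13 CPM. Rora, the ROR family activator of Arntl, was at 255, 266, 214 and 268 CPM in hashtags 1 to 4 and at 28.4 and 41.0 CPM in hashtags 5 and 6. Of the E-box target list 9 of 16 genes were at 10 CPM or more in these cells, and 7 of the 9 passed 2-fold between hashtags. Of the list named regulators of Arntl, 3 of 6 were measured (Nr1d2, Rora and Nfil3) and all 3 passed. Nfil3 stands in that list but acts on clock output genes, as given above. Of the clock modifiers and cofactors, 1 of 15 measured did (Sirt1, a deacetylase), against the 36.9% of all genes. Nr1d2 stands in both the E-box target list and the regulator list. Per1 and Rora passed 2-fold only through hashtags 5 and 6, where Per1 had 7 and 4 UMIs.

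**Figure D4:**
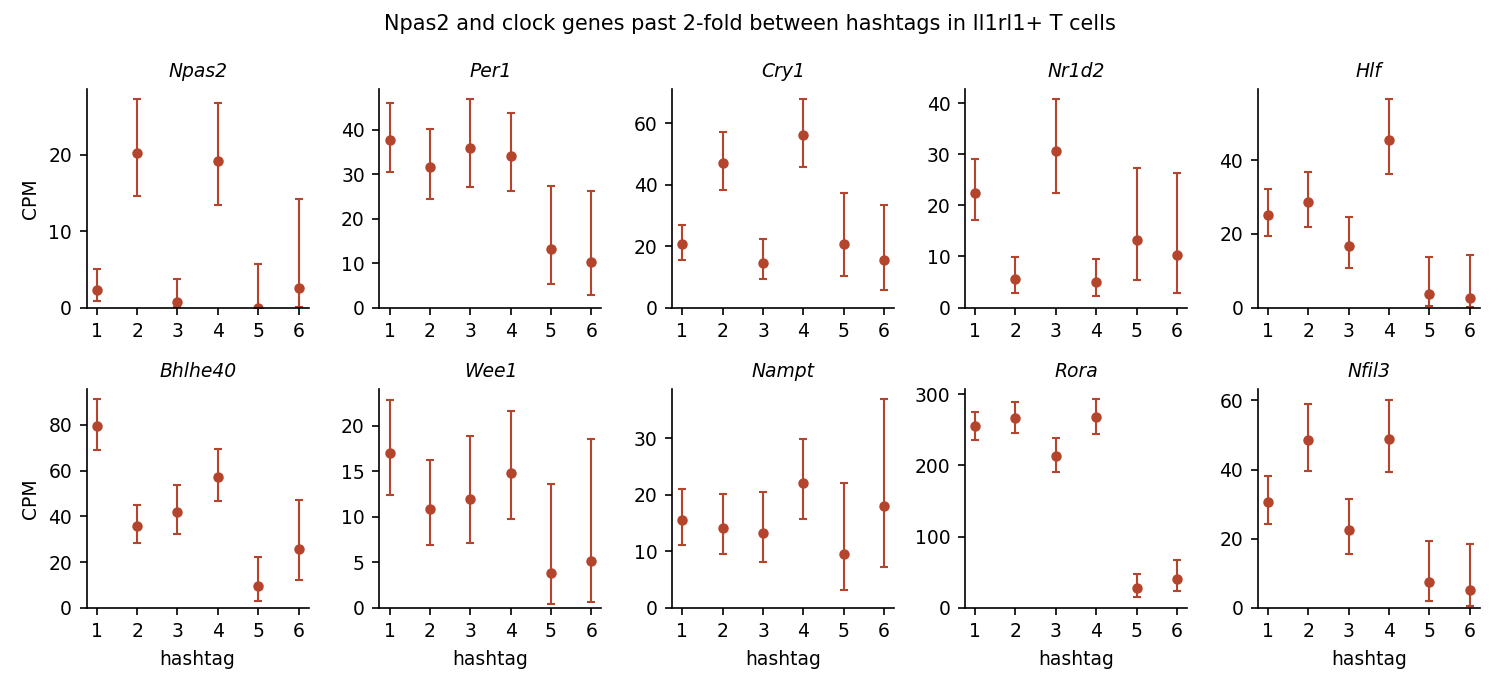
CPM in Il1rl1+ T cells (y axis, own scale per panel) by hashtag (x axis) for Npas2 and genes of 2 lists. These are the measured genes of the E-box target and Arntl regulator lists that differed by over 2-fold between hashtags. Bars are exact 95% Poisson intervals, or reach up to the level of 3 counts where no UMI was found. Npas2, Cry1, Nfil3 and Hlf are highest in hashtags 2 and 4, with Hlf of hashtag 2 close to that of hashtag 1. Nr1d2 is lowest in hashtags 2 and 4. Per1 is alike in hashtags 1 to 4, Bhlhe40 and Wee1 are highest in hashtag 1, and Rora is low in hashtags 5 and 6.

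Between gates the same lists gave few calls. In Il1rl1+ over other T cells, 0 of 7 measured E-box targets, 1 of 3 regulators (Rora, higher, median log2 ratio 1.17), 0 of 15 modifiers and 0 of 3 relatives of the bHLH-PAS family, to which the members belong, were past 2-fold. List medians were 0.11, 0.91, 0.00 and 0.16, against 0.00 for all genes. In naive cells, where 5.7% of genes were past 2-fold lower by the median, this held for 1 of 7 E-box targets, 2 of 3 regulators, 0 of 15 modifiers and 2 of 3 relatives. Their list medians were -0.27, -1.60, -0.19 and -1.14, against -0.19 for all genes. In all 5 hashtags used naive cells had over 2-fold less Bhlhe40 (median log2 ratio -1.92), Rora (-2.17) and Ahr, the aryl hydrocarbon receptor of the bHLH-PAS family (-1.39). Pooled, Bhlhe40 was at 7.02 CPM in naive cells and 46.5 CPM in the others, Rora at 14.2 and 106 CPM, and Ahr at 2.98 and 12.3 CPM. Hif1a, the hypoxia factor of the same family, was over 2-fold higher in Cxcr5+ cells of hashtags 5 and 6 (median log2 ratio 1.45), at 260 CPM pooled, against 95.8 CPM in their other T cells.

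The genes most like each member were ranked by Pearson correlation of log2(CPM + 5) over 22 units, each a hashtag and a gate of cells with 1 gate marker only. The units share 1 library, and units of 1 hashtag share their mice. Npas2 was most like Egr1 (r = 0.853), Cxcl2 (0.835), Furin (0.835), Adam8 (0.825) and Pxdc1 (0.822), though it had only 68 UMIs over the units. By rank (Spearman) the correlations were lower, at 0.736, 0.717, 0.659, 0.735 and 0.491 in the same order. In Il1rl1+ cells of hashtags 1 to 6, Egr1, an early-response factor, stood at 282, 537, 166, 406, 43.5 and 33.3 CPM. Cxcl2, a chemokine, stood at 1101, 2077, 508, 1105, 58.6 and 12.8 CPM, with hashtag 4 level with hashtag 1. Furin, a protein-cutting enzyme, stood at 362, 617, 205, 684, 28.4 and 15.4 CPM. Adam8, a surface protease, was at 46.9, 63.1, 29.96, 57.8, 1.89 and 7.69 CPM, and Pxdc1 at 33.7, 81.5, 18.0, 56.7, 1.89 and 0 CPM. All 5 genes were highest in hashtag 2 or 4 and low in hashtags 5 and 6. They were picked for likeness to Npas2 over units that include Il1rl1+ cells of these hashtags. The shared pattern thus follows from that choice and is no separate result. Arntl was most like Sat1 (0.773), Bax (0.772), Cdk6 (0.743), Smarca5 (0.741) and Cdk11b (0.730), and Clock most like Gopc (0.764), Fez2 (0.746), Gm45716 (0.746), Zc3h8 (0.730) and Brd1 (0.723). Among the members r was 0.14 for Arntl and Clock, 0.40 for Arntl and Npas2 and 0.33 for Clock and Npas2. At so few UMIs these describe the units and show no relation.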

How the data were processed

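The libraries were 10x Genomics 3′ v3.1 transcripts and TotalSeq hashtags, per the labels' protocols. The deposited values of both are raw counts (UMIs or tags) per barcode. Per the file headers the matrix came from cellranger 4.0.0, but Cell Ranger 6.0, Seurat 3 and mm10 stand in the submitters' processing notes. Members and gene lists were chosen with earlier results of these data known.

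HTODemux (from Seurat 5.3.0, run in R 4.3.3 with quantile 0.99) placed 22952 of 22960 barcodes as 14879 singlets, 5804 doublets and 2269 without a call. It cannot see 2 cells that share a hashtag. The cell filter asked for 500 genes or more and less than 10% mitochondrial UMIs, which 13599 singlets passed. Of these, 11655 had 2 or more UMIs of 6 T cell receptor genes and at most 1 UMI of 19 genes of other cell types. UMIs were summed per hashtag and gate with numpy 2.4.6, pandas 2.3.3 and scipy 1.17.1 under Python 3.11.15. A hashtag entered a ratio when both sides had 50 cells or more, and the prior count was 0.5. Intervals are exact at 95% (Poisson, Clopper-Pearson, or conditional binomial for ratios) and cover counting error only. Genes named are the members, list genes past 2-fold in every hashtag used or set beside a member's result, and the 5 genes most like each member. Values are given for those most like Npas2, a choice made after they were seen. Alternatives included TMM totals from edgeR 4.0.16. The ratio script was tested on simulated data. The reference names held 54349 of the gene IDs.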

Additional observations from a re-analysis of the deposited data

Results flagged for a closer look

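Barcodes outside the T cell gate were not part of any comparison and also held the members. The 1944 singlets left out carried Arntl at 14.3 CPM (11.99 to 17.0), Clock at 28.5 CPM (25.2 to 32.2) and Npas2 at 1.83 CPM (1.07 to 2.93), each above the level that 3 counts would give. T cells of all hashtags pooled held 18.2, 21.5 and 2.79 CPM of the same genes.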

How the results depend on the processing

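Of 884 recomputed values, 825 stayed within the counting interval of the reported one. Of the 12 median gate ratios of Arntl and Clock, 8 turned sign under at least 1 alternative. The 4 that did not were Arntl in Il1rl1+ and Klrd1+ cells and Clock in Cxcr5+ and naive cells. The Npas2 log2 ratio of Il1rl1+ over other T cells ran from 1.40 to 2.66 in hashtag 2 and from 2.06 to 3.25 in hashtag 4, lowest with exclusive gates in both. In hashtag 1 it ran from 0.94 to 2.41, and in hashtag 3 from -0.75 to 1.67, on few UMIs. UMI totals without mitochondrial and ribosomal protein genes raise CPM by construction: Arntl medians became 30.3 in Foxp3+, 27.0 in Il1rl1+, 25.2 in Cxcr3+ and 27.3 in naive cells, and Clock medians 30.4, 31.2, 32.1 and 26.8 in these gates and 33.6 in Klrd1+ cells. With 2 marker UMIs, Arntl was at 25.0 CPM in Il1rl1+, 12.8 in Cxcr3+ and 12.3 in naive cells, with a naive log2 ratio of -0.59. With exclusive gates, the Foxp3+ log2 ratio was 0.72 for Arntl and -0.57 for Clock, whose level was 11.2 CPM. With every barcode kept by its top hashtag, Arntl was at 23.9 CPM in Il1rl1+ cells (log2 ratio 0.38) and the Clock log2 ratio was -0.037. The stricter cell filter put Clock at 13.9 CPM in Klrd1+ cells. A prior count of 2 turned the Arntl naive log2 ratio to 0.27. Leaving out a hashtag gave -0.54 to 1.08 for the Arntl log2 ratio in Cxcr5+ cells (hashtags 5 and 6) and -0.78 to -0.19 for Clock in naive cells (lowest without hashtag 3 or 6). Causes were not tested. Spreads over hashtags of at least 200 cells, and Il1rl1+ cells at or below the median dissociation sum (Arntl 17.0 CPM), were chosen after seeing the data. No paired analysis was possible because the hashtags carry no group or replicate label. With genes from 1 CPM, 4.53% were past 2-fold higher in Il1rl1+ cells (2.04% from 10 CPM). Npas2 in Cxcr5+, Klrd1+ and naive cells is limited by depth.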
